A study of Mus musculus with 6 samples.

Results

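Renal cortex keeps amino acids in the body through membrane carriers, and 51 genes named as such carriers were compared between injured kidneys with and without BA treatment. They were chosen by symbol alone: every gene of the families Slc1, Slc3, Slc6, Slc7, Slc36, Slc38 and Slc43 in the deposited table, which held 51 of its 19176 rows, each symbol once. The reference annotation GENCODE M21 lists 67 symbols of these families, and the table has no row with fewer than 10 reads summed over the 6 libraries. Slc7a6os and Slc36a3os match the rule by name only. The annotation gives the first as a protein-coding gene on the opposite strand beside Slc7a6 and the second as an antisense transcript, and neither was given a carrier role.

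All mice were wild-type C57BL/6J with unilateral ischemia-reperfusion injury (UIRI), per the methods males aged 8 weeks whose left renal pedicle was clamped and whose right kidney was taken out on the day before the end. The UIRI group received daily intraperitoneal vehicle (ethanol in saline) and the UIRI + BA group daily intraperitoneal BA at 1 mg/kg. BA is Bruceine A, a plant quassinoid that the labels spell brucine A. Cortex was collected on day 14 from 3 animals of each group, 1 library each, and sham kidneys were not analysed here, so each value compares injured with injured and treated tissue.

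Amino acids filtered by the glomerulus are taken back almost completely by the proximal tubule. Carriers in the apical brush border, many driven by sodium, move them from the lumen into the cell, and another set in the basolateral membrane passes them on to the blood. Others, present in most cell types and induced through the transcription factor ATF4 or by oxidative stress and growth signals, feed the cell itself. Several carriers work only in pairs: Slc3a1 is the heavy chain of the apical cystine carriers Slc7a9 and Slc7a13, and Slc3a2 is that of Slc7a5, Slc7a7, Slc7a8 and Slc7a11.

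Depth on genes ran from 16510720 to 38124164 reads per library. UIRI replicate 3 was the deepest, at 2.04 times the median of the other 5. No proximal tubule marker was at 0 in any library, with a lowest count of 52 reads. Thick limb and collecting duct markers were present too, with lowest counts of 198 and 27 reads. Such counts show kidney tubule in every library but cannot tell cortex from other parts of the kidney, so the cortex label rests on the labels alone. UIRI replicate 3 stood nearer to the UIRI + BA libraries than replicates 1 and 2 did in the proximal tubule markers, so counts are given below with and without it. Urothelium markers were low and uneven, with summed normalized counts of 188 to 680 in UIRI and 78.9 to 432 in UIRI + BA; all 8 were highest in replicate 3 of each group, and Upk2 was at 0 in UIRI + BA replicates 1 and 2.

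Of 9 carriers of the apical brush border, 8 had higher values with BA at an unadjusted p below 0.05, while of 9 carriers induced by stress 1 was higher and 1 lower. With limma on log2(normalized count + 1), 0 of the 51 genes had an adjusted p below 0.05, as had 0% of all 19176 genes. At an unadjusted p below 0.05, 18 were higher with BA, against 5.67% of all genes, and 2 were lower, against 4.61%. In 14 of the 51 every UIRI + BA library lay above every UIRI library, against 7.45% of all genes, and in 3 every one lay below, against 6.96%. The shares of the 51 that were lower, 3.92% by the unadjusted p and 5.88% by range, are near those of all genes. By edgeR's quasi-likelihood test 0 of the 47 genes of the rule that it tested had an adjusted p below 0.05, as had 0% of all genes, and 19 had an unadjusted p below 0.05, against 9.93% of all genes. Fewer cells of a type and less RNA per cell cannot be told apart in such bulk tissue.

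DESeq2 on the recovered reads gave 4 genes an adjusted p below 0.05, against 1.35% of all genes with an adjusted p. All 4 rose by this test and all 4 are apical carriers: Slc6a20b, Slc3a1, Slc1a1 and Slc6a18. The count rested on single libraries. Without UIRI replicate 1 or UIRI + BA replicate 3 DESeq2 called 0 of the 51 genes, against 0.12% and 0.693% of all genes. Without UIRI replicate 2 it called Slc6a18 and Slc6a15, against 0.581%, without UIRI + BA replicate 1 Slc1a1, Slc6a18 and Slc7a9, against 0.493%, and without UIRI + BA replicate 2 Slc6a20b and Slc3a1, against 0.838%. Without UIRI replicate 3 it called 11 of the 51, against 11.6% of all genes. With limma, leaving out UIRI replicate 3 gave 9 genes an adjusted p below 0.05, against 5.02% of all genes in that fit, all 9 of them higher with BA: Slc6a20b, Slc3a1, Slc6a19, Slc1a1, Slc7a7, Slc1a4, Slc36a1, Slc6a6 and Slc6a4. Leaving out any other library gave 0. The number lower at an unadjusted p was 5 without UIRI replicate 3, against 11.5% of all genes in that fit. It was 1 without UIRI replicate 1, UIRI + BA replicate 1 or UIRI + BA replicate 3, against 1.61%, 2.72% and 4.35% of all genes, and 2 without UIRI replicate 2 or UIRI + BA replicate 2, against 3.27% and 4.2%. By range the number below was 12 without UIRI replicate 3, against 22.4% of all genes, and 3 to 6 without any other library, against 9.19% to 12.4%; fewer libraries make separate ranges more frequent.

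**Figure D1:**
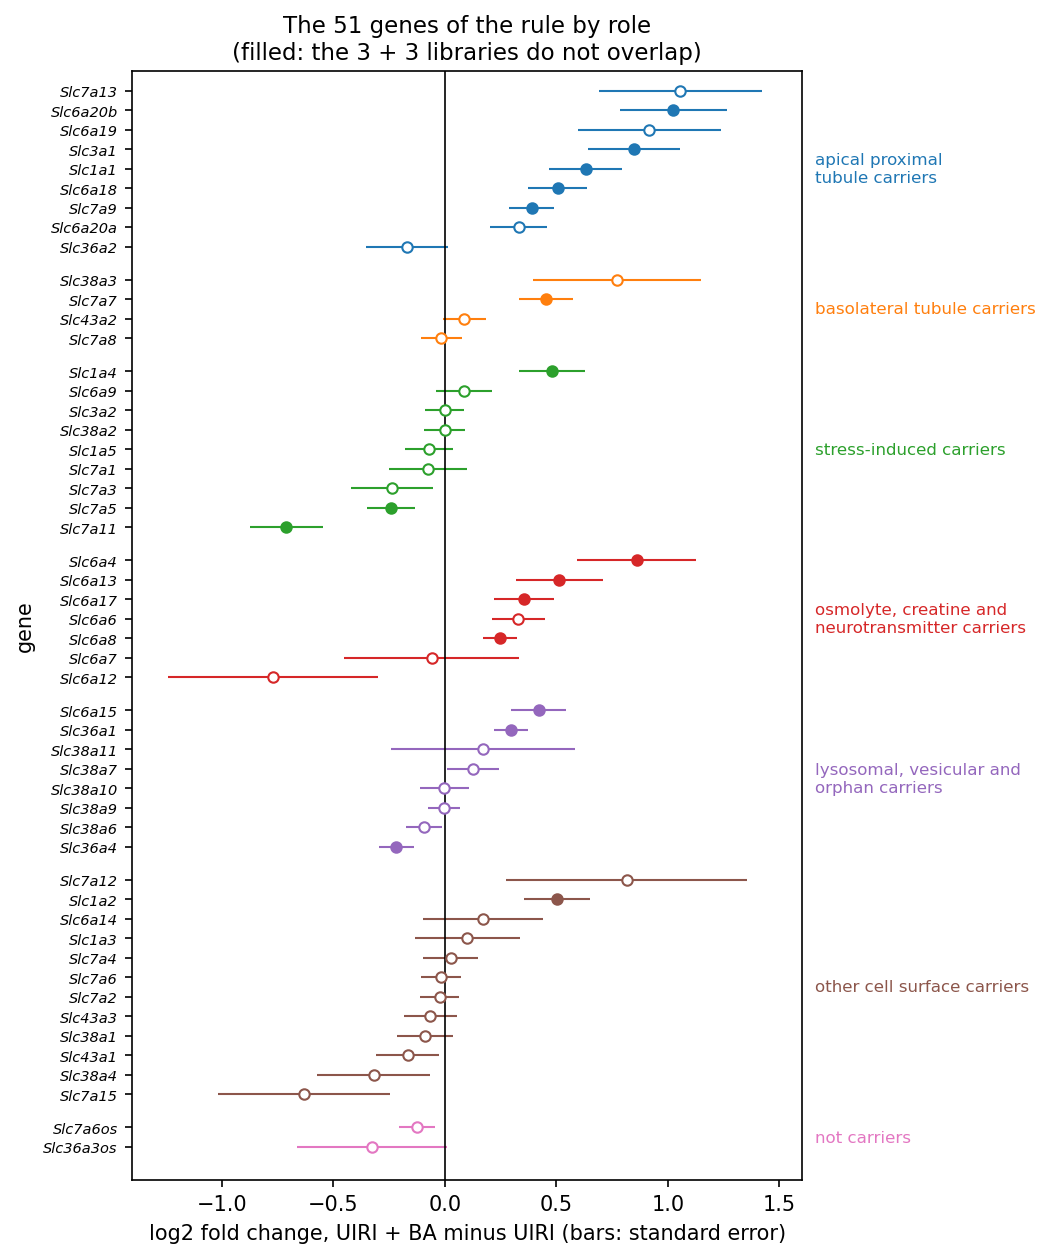
Log2 fold change of each of the 51 genes, UIRI + BA minus UIRI, with the standard error of the limma fit as a bar and 3 libraries in each group; filled points mark genes whose groups do not overlap. In the apical row group 8 of 9 points lie right of 0, with a median of 0.63, and in the stress-induced group 7 of 9 lie on it or to its left, with a median of -0.07.

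Of the 9 apical proximal tubule carriers, 8 were higher with BA, all 8 at an unadjusted p below 0.05, against 5.67% of all genes. In 5 every UIRI + BA library lay above every UIRI library, against 7.45% of all genes. The list's median log2 fold change was 0.63, against -0.01 over all genes. The lowest adjusted p in the list by limma was 0.26. The largest separated difference was that of Slc6a20b, a carrier of proline and other imino acids. Slc6a20b was at 248, 306 and 494 normalized counts in UIRI replicates 1 to 3 and at 707, 544 and 824 in UIRI + BA. The means were 349 ± 129 in UIRI and 692 ± 141 in UIRI + BA (mean ± SD, n = 3 libraries each, as for all SDs here), a log2 fold change of 1.02 with an adjusted p of 0.26 by limma and 0.0055 by DESeq2. UIRI replicate 3 was the highest of its group and still below the lowest treated library.

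Slc3a1 showed the same order of libraries. This heavy chain stood at 986, 1067 and 1798 in UIRI and at 2293, 1918 and 2509 in UIRI + BA, which gave 1284 ± 447 in UIRI and 2239.7 ± 299 in UIRI + BA and a log2 fold change of 0.85 (adjusted p 0.263 by limma, 0.0109 by DESeq2). UIRI replicate 3 lay only just under UIRI + BA replicate 2. Its light chain Slc7a9 was at 898, 1066 and 965 in UIRI against 1131, 1371 and 1339.8 in UIRI + BA, a smaller and tighter difference of 0.39 on the log2 scale (adjusted p 0.291 by limma, 0.0771 by DESeq2). The groups were apart without overlap, and UIRI replicate 3 was not the highest of its group here. The other light chain, Slc7a13, an aspartate and glutamate carrier of the late proximal tubule, was at 239, 209 and 346 in UIRI and at 338, 443 and 1045 in UIRI + BA. Its log2 fold change of 1.06, the highest of the 51, came with overlapping groups and was 0.58 without UIRI + BA replicate 3. The markers of the last, S3, segment of the proximal tubule were also highest in UIRI + BA replicate 3. They summed to 24038, 28186 and 28532 normalized counts without BA and 31754, 33371 and 46694 in UIRI + BA, without overlap, whereas by mean log2 value the groups overlapped, with UIRI replicate 3 at 9.97 above UIRI + BA replicate 1 at 9.88. Of the 6 markers 4 were higher in the treated mean, and Slc22a7 was lowest at 7 reads; their part in the Slc7a13 difference was not tested.

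**Figure D2:**
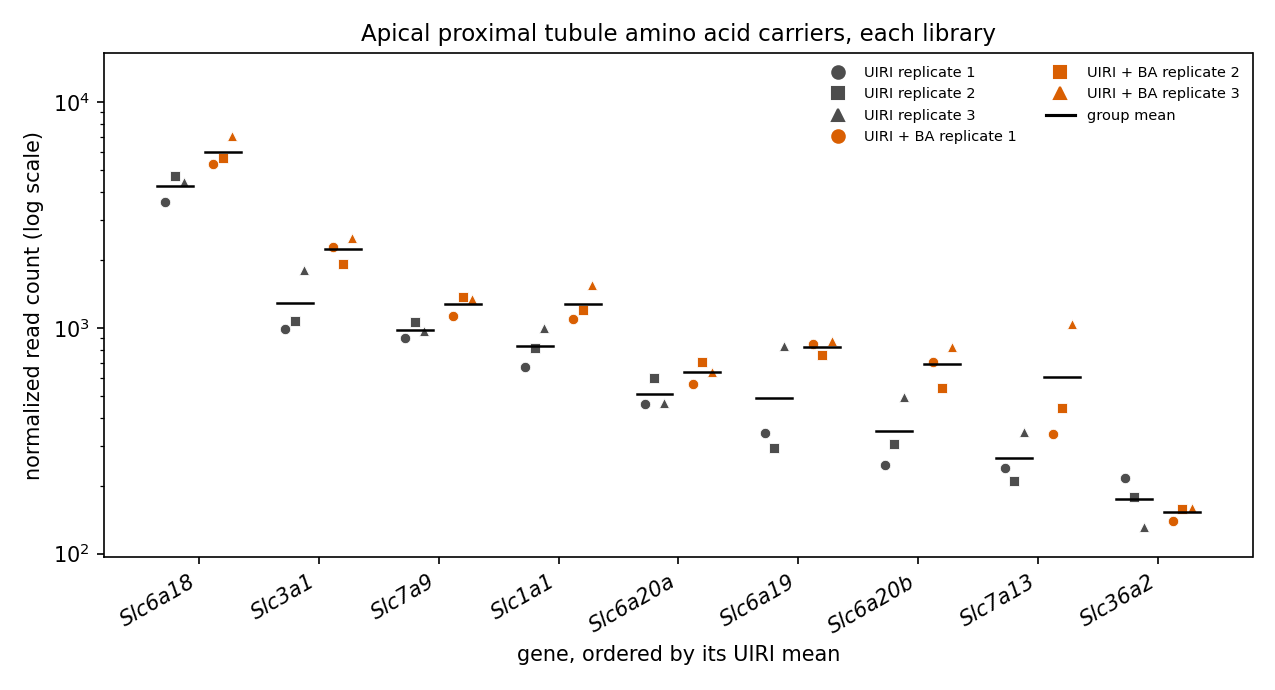
Normalized read counts on a log axis of the 9 apical carriers in each of the 6 libraries, UIRI grey and UIRI + BA orange, with a bar at each group mean. Slc6a18, Slc3a1, Slc7a9, Slc1a1 and Slc6a20b have every orange point above every grey one, whereas Slc6a19 has UIRI replicate 3 at 829, among its treated libraries.

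The glutamate carrier Slc1a1 was at 674, 812 and 998 in UIRI against 1099, 1195 and 1549.6 in UIRI + BA. Its log2 fold change was 0.63, with an adjusted p of 0.291 by limma and 0.0256 by DESeq2. Slc6a18, a kidney carrier of glycine and other neutral amino acids, was the most abundant of the list per length. It stood at 3597, 4715 and 4410.2 in UIRI against 5325, 5666 and 7113 in UIRI + BA, so the log2 fold change was 0.51 (adjusted p 0.291 by limma and 0.0299 by DESeq2). In both genes UIRI + BA replicate 3 was the highest of the 6 libraries and the groups did not overlap. The gene next to Slc6a18 on chromosome 13 is Slc6a19, the main neutral amino acid carrier of the brush border. Slc6a19 divided the UIRI group, at 343, 292 and 829, while the treated libraries lay close together at 844, 761 and 872. The log2 fold change of 0.92 was 1.38 without UIRI replicate 3, and the DESeq2 adjusted p with all libraries was 0.685.

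Slc6a20a, the neighbour and close copy of Slc6a20b on chromosome 9, was at 460.0, 598 and 464 in UIRI against 566, 704 and 639 in UIRI + BA, with overlapping groups and a log2 fold change of 0.33. How reads that match both copies were counted is not given in the sources used here, so the split between the pair is uncertain. Slc36a2, a proton-coupled carrier of glycine and proline, was the exception among the 9. It was at 215, 178 and 131 in UIRI against 139, 158 and 159.7 in UIRI + BA, with -0.17 as the log2 fold change with overlapping groups and an adjusted p of 0.746.

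General markers of the proximal tubule stood higher together with the apical carriers. All 12 markers were higher in UIRI + BA, 11 at an unadjusted p below 0.05 and 6 without overlap, against 5.67% and 7.45% of all genes. The 12 had a median log2 fold change of 0.71. Their summed level ran from 24909 to 38459 in UIRI and from 40950 to 49260 in UIRI + BA. By mean log2 value the groups barely parted, with UIRI replicate 3 at 10.9723 and UIRI + BA replicate 2 at 10.9727. Of other tubule markers, 6 of 6 of the collecting duct and 4 of 5 of the thick limb had higher means, with medians of 0.25 and 0.09. All of these overlapped, and 0 had an unadjusted p below 0.05, against 10.3% of all genes. All 7 leukocyte markers and all 6 fibroblast markers had lower means in UIRI + BA, with medians of -0.26 and -0.33. At an unadjusted p below 0.05, 1 leukocyte and 4 fibroblast markers were lower, against 4.61% of all genes. Of the fibroblast markers 3 were without overlap and 2 called by DESeq2, against 6.96% and 1.35% of all genes. The leukocyte and fibroblast sums ran from 67771 to 95526 against 64346 to 76020 and from 67566 to 82610 against 48553 to 65112, and no marker was at 0. Of 6 injured tubule markers 5 had higher means with BA, 3 of them at an unadjusted p below 0.05, among which Havcr1 (KIM-1) gave 0.42. The other, Lcn2 (NGAL), was lower at -0.51, also at an unadjusted p below 0.05 and without overlap. In this model the paper reports lower mRNA of both KIM-1 and NGAL with BA, by RT-qPCR and in more animals, so the direction of Havcr1 differs here. The sum of the 6 markers, mostly Spp1, ran from 393158 to 409453 in UIRI and from 406042 to 474105 in UIRI + BA. The part of any of these cell types in the carrier differences was not tested.

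In GRCm38, by GENCODE M21, Slc3a1 spans chromosome 17 from 85028376 to 85064236, Slc1a1 chromosome 19 from 28835049 to 28913960, and Slc7a9 chromosome 7 from 35448796 to 35466036. Slc6a18 and Slc6a19 lie side by side on chromosome 13, from 73661752 to 73678023 and from 73679745 to 73704865, as do Slc6a20b and Slc6a20a on chromosome 9, from 123590800 to 123632565 and from 123634770 to 123678885. The build used for the deposited counts is not given in the sources used here, so only the symbols link the positions to the values. RefSeq promoters (GRCm38.p6, 250 bases before to 50 after each start) were found for 35 of the 51 genes, 6 of them apical. They were searched on both strands for a motif of HNF4, a nuclear receptor of the proximal tubule, written CAAAGTCCA. It occurs in 0.475% of all 32851 promoter windows and, among the 55 windows of the 51 genes, in that of Slc3a1 alone. The motif of HNF1, another tubule factor, written GTTAATNAT, occurs in 0.801% of all windows and in 0 of the 55. The Slc3a1 window is shown because it carries the HNF4 motif, in capitals from base -39 to -31 before the start, on the plus strand at chr17:85028197-85028356.
Slc3a1: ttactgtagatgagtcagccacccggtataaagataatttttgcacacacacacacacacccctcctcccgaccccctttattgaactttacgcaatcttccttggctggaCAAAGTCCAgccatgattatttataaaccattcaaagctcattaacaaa
The RefSeq start of Slc3a1 lies upstream of the first base that GENCODE gives. A match describes letters in the window and was not tested as a binding site.

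The basolateral carriers were less uniform. These 4 genes had a median log2 fold change of 0.27, and 1 of them had an unadjusted p below 0.05, against 10.3% of all genes. That gene was Slc7a7, which exports cationic amino acids together with Slc3a2. Slc7a7 stood at 629, 695 and 830.2 in UIRI against 1099.9, 947 and 893 in UIRI + BA, without overlap, for a log2 fold change of 0.45 (adjusted p 0.304 by limma and 0.0914 by DESeq2). The glutamine carrier Slc38a3 was low, with 21.5, 11.2 and 25.2 in UIRI against 27.6, 23.7 and 50.1 in UIRI + BA normalized counts, and its log2 fold change of 0.77 had a standard error of 0.38. As few as 10 reads stood behind 1 of its values. Slc7a8, the basolateral exchanger of large neutral amino acids, was at 1669.7 ± 174 in UIRI and 1647 ± 81.3 in UIRI + BA, which gave a log2 fold change of -0.02. The uniporter Slc43a2 was at 1298 ± 59 in UIRI and 1385 ± 164 in UIRI + BA, so the log2 fold change was 0.09, and both genes had overlapping groups.

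The stress-induced carriers did not share a direction: 7 of the 9 log2 fold changes were below 0, some only just, and 2 were above. Among these 9 genes, 1 was higher and 1 lower at an unadjusted p below 0.05, against 5.67% and 4.61% of all genes. The list's median log2 fold change was -0.07, or 0.06 without UIRI replicate 3. Slc7a11, the cystine and glutamate exchanger that feeds glutathione synthesis, had the lowest unadjusted p of the 51 genes by limma and edgeR, but not by DESeq2. Slc7a11 was at 80.4, 79.9 and 90.9 in UIRI and at 46.4, 53.8 and 52.2 in UIRI + BA. Its means of 83.7 ± 6.22 in UIRI and 50.8 ± 3.93 in UIRI + BA gave a log2 fold change of -0.71, with an adjusted p of 0.255 by limma and 0.161 by DESeq2. Each treated library lay below every untreated one, and the log2 fold change stayed between -0.75 and -0.65 with any 1 library left out. Slc1a4, a carrier of alanine, serine and cysteine, went the other way. It was at 180.1, 200.2 and 256 in UIRI and at 277, 279 and 326 in UIRI + BA, again without overlap, for a log2 fold change of 0.48 (adjusted p 0.359). UIRI replicate 3 was the highest of its group, as in 5 of the 9 apical carriers.

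Slc7a5, which imports leucine and other large amino acids, was at 291, 290.2 and 255 in UIRI against 224, 240.2 and 242 in UIRI + BA, narrowly without overlap, a log2 fold change of -0.24 (adjusted p 0.487). In the other 6 the groups overlapped. The most abundant of these by normalized count, the glutamine and alanine carrier Slc38a2, was at 5777 ± 501 in UIRI and 5772 ± 462 in UIRI + BA, with -0.00063 as the log2 fold change with a standard error of 0.09. The shared heavy chain Slc3a2 was at 2325 ± 244 in UIRI and 2317 ± 55.1 in UIRI + BA, which gave a log2 fold change of -6.2e-05 with a standard error of 0.09. The glutamine carrier Slc1a5 gave -0.07, the arginine carriers Slc7a1 and Slc7a3 gave -0.07 and -0.24, and the glycine carrier Slc6a9 gave 0.09. Slc7a1 had 1 library apart, UIRI replicate 3 at 928 against 557 to 675 in the rest.

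**Figure D3:**
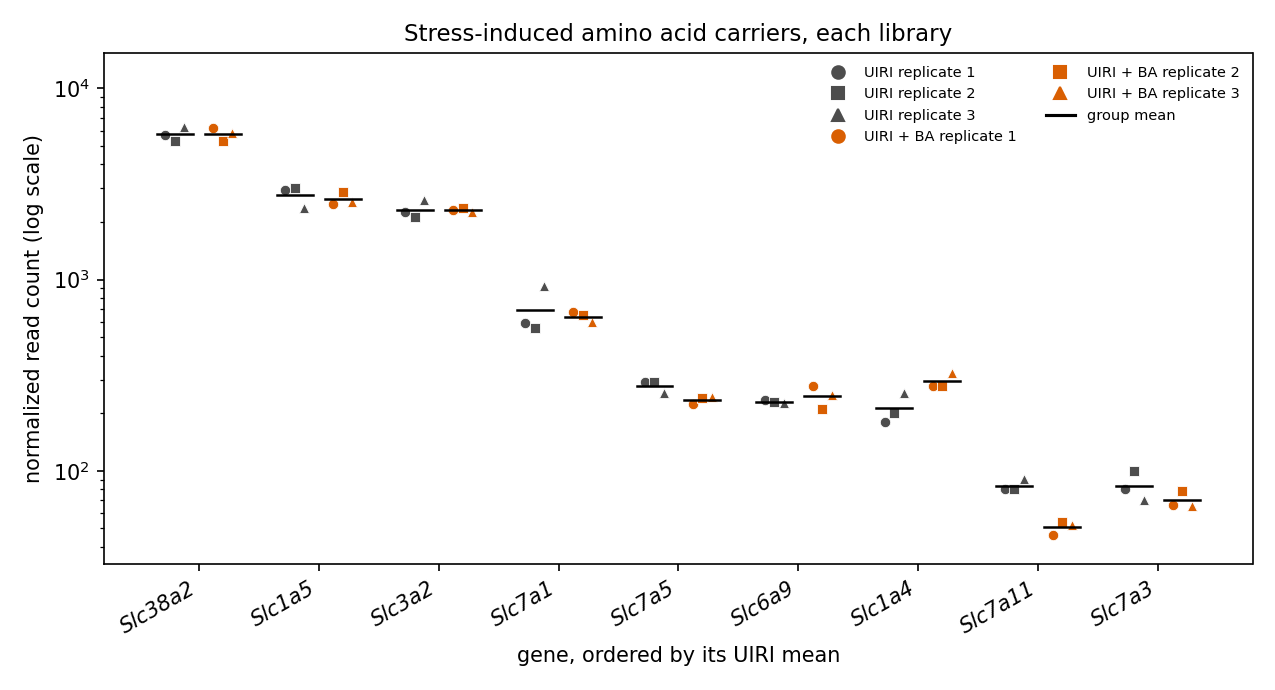
Normalized read counts on a log axis of the 9 stress-induced carriers in each library, UIRI grey and UIRI + BA orange, with a bar at each group mean. The groups are apart in Slc7a11 and Slc7a5, where UIRI + BA is lower, and in Slc1a4, where it is higher; Slc38a2, Slc3a2 and Slc1a5 show the groups on top of each other.

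Both stress-induced genes with an unadjusted p below 0.05 have a RefSeq promoter with the amino acid response element, the motif that ATF4 dimers bind, written TGATGNAA and searched on both strands. It occurs in 3.97% of all promoter windows and in 4 of the 55 windows of the 51 genes, namely those of Slc7a11 and Slc1a4 and both of Slc7a7. The Slc7a7 windows overlap and share a site. The instance from -243 to -236 in the window not shown is the one from -1 to 7 in the window shown. Promoters were found for 6 of the 9 stress-induced genes. The windows are shown from 150 bases before to 10 after the start, with the motif or its reverse complement in capitals and all on the minus strand. They lie at chr3:50443604-50443763 (Slc7a11), chr11:20332704-20332863 (Slc1a4) and chr14:54417935-54418094 (1 start of Slc7a7).
Slc7a11: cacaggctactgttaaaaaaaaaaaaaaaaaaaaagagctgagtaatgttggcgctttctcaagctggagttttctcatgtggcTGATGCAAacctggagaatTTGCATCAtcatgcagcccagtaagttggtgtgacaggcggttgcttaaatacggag
Slc1a4: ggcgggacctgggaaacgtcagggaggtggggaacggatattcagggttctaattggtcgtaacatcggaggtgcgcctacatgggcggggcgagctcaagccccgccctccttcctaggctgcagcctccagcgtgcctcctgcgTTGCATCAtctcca
Slc7a7: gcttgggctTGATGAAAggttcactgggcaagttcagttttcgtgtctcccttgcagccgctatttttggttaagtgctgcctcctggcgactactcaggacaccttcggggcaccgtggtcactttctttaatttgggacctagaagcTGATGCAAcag
The Slc7a11 window holds the motif from base -66 to -59 and its reverse complement from -47 to -40. The same letters thus stand before a gene with lower values in UIRI + BA, Slc7a11, and before 2 with higher values, Slc1a4 and Slc7a7. In Slc1a4 and in 1 of the 2 instances in the Slc7a7 window shown, the motif reaches over the RefSeq start itself, and this start of Slc7a7 opens no GENCODE transcript.

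Osmolyte, creatine and neurotransmitter carriers of the Slc6 family formed the other list with many higher members. With a list median of 0.33, 5 of the 7 in the table were higher with BA at an unadjusted p below 0.05, against 5.67% of all genes. Slc6a6, the taurine carrier, was the most abundant of them per length, at 5671, 6226 and 7668 normalized counts in UIRI against 8856, 7477 and 8107 in UIRI + BA, with a log2 fold change of 0.33. UIRI replicate 3 lay within the treated range. Slc6a8, the creatine carrier, was at 2828, 3068 and 3186 in UIRI against 3623, 3723 and 3429.9 in UIRI + BA, a small difference of 0.25 on the log2 scale whose groups did not overlap. Slc6a13, a carrier of GABA and taurine, was at 382, 494 and 513 in UIRI against 544, 569.7 and 909.9 in UIRI + BA, with UIRI + BA replicate 3 far above the other treated libraries. Its log2 fold change of 0.51 was 0.28 without that library. Slc6a17, a vesicular carrier of neutral amino acids known from neurons, was at 299.7 ± 39.4 in UIRI and 383 ± 46.6 in UIRI + BA and gave 0.35. The serotonin carrier Slc6a4 was low, at 19.3, 19.1 and 34.5 in UIRI against 43.8, 43.1 and 42.8 in UIRI + BA, and gave 0.86 without overlap. All 5 had adjusted p from 0.364 to 0.448. The other 2, Slc6a7 and Slc6a12, stood at 2.15 to 11.2 normalized counts per library.

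Of 8 lysosomal, vesicular and orphan carriers, 3 had an unadjusted p below 0.05, against 10.3% of all genes. Slc36a1, the proton-coupled carrier through which amino acids leave lysosomes, was at 1189.6, 1323 and 1304 in UIRI against 1609.8, 1507 and 1574 in UIRI + BA, so the log2 fold change was 0.30 (adjusted p 0.291). Its libraries were tight in both groups and apart between them. Slc36a4 of the same family was lower, at 982, 882 and 901 in UIRI against 785, 818 and 773 in UIRI + BA, with -0.22 as the log2 fold change (adjusted p 0.441), also without overlap. The neutral amino acid carrier Slc6a15 was at 989, 1175 and 851 in UIRI against 1250.2, 1493 and 1272 in UIRI + BA, higher by 0.42 (adjusted p 0.349). Slc38a10, the most abundant of the list per length, was at 2254 ± 306 in UIRI and 2239 ± 156 in UIRI + BA, which gave a log2 fold change of -0.0022.

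Among 12 other cell surface carriers only Slc1a2 had an unadjusted p below 0.05, against 10.3% of all genes. Slc1a2, a glutamate carrier best known from astrocytes, was at 238, 319 and 249 in UIRI against 442, 364 and 336 in UIRI + BA. Its log2 fold change was 0.50 (adjusted p 0.343). Slc43a3, a purine base carrier and the most abundant of this list per length, was at 2319.7 ± 186 in UIRI and 2234 ± 376 in UIRI + BA and gave -0.06. The list's median log2 fold change was -0.02. Slc7a6os and Slc36a3os gave -0.12 and -0.33 with overlapping groups. The labels name a strand-specific kit, but whether strand was used in counting is not given in the sources used here, so reads of an antisense gene and of its partner may be mixed.

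Levels of different genes were compared per exon length, scaled to the same sum in each library. Slc6a18 was the highest of all 51, at 141 ± 21.9 in UIRI and 204 ± 27.1 in UIRI + BA (SD, n = 3), followed in UIRI by the taurine carrier Slc6a6 at 114 ± 23.5. Slc1a5, Slc3a2 and Slc38a2 came next in UIRI, at 97 ± 8.41, 96.9 ± 14.7 and 96.1 ± 12.6, and their order changed between libraries. Slc6a6 was above Slc3a2 and Slc38a2 in every UIRI library, but below Slc1a5 in UIRI replicate 1. Slc3a1, at 83.8 ± 33.5 in UIRI, was below Slc1a5, Slc3a2 and Slc38a2 in UIRI replicates 1 and 2, at 61.7 and 67.3. It was above all 3 in UIRI replicate 3, at 122. In UIRI + BA Slc3a1 was at 148 ± 22.4, beside treated levels of 94.5 ± 5.4, 98.6 ± 5.04 and 98.3 ± 12.6 for the 3. Slc7a9, its partner, was at 53.5 ± 5.07 and 71.6 ± 3.76. Slc6a19 was at 9.74, 8.37 and 25.6 in UIRI, below Slc1a1 at 11.6 and 14.1 in replicates 1 and 2 and above its 18.7 in replicate 3. Slc7a11 stood near the bottom, at 0.884 ± 0.108 in UIRI and 0.546 ± 0.0154 in UIRI + BA.

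Carriers that share a partner or a gene cluster were set against each other within each library, as the difference of their log2 values. In 7 such pairs the exact two-sided permutation test could not go below p = 0.1, and the adjusted p over the 7 was 0.35 at best. The groups did not overlap in 2 pairs, both with Slc3a2. As the log2 fold change of Slc3a2 itself was -6.2e-05, these 2 differences restate those of Slc7a7 and Slc7a11 alone. Slc7a7 relative to Slc3a2 was at -1.84, -1.61 and -1.64 in UIRI against -1.07, -1.33 and -1.34 in UIRI + BA, higher by 0.45. Slc7a11 relative to Slc3a2 was at -4.79, -4.72 and -4.82 in UIRI against -5.61, -5.44 and -5.42 in UIRI + BA, a difference of -0.71. Slc3a1 relative to Slc7a9 overlapped, at 0.13, 0.0015 and 0.90 in UIRI against 1.02, 0.48 and 0.90 in UIRI + BA, as did Slc6a20b relative to Slc6a20a and Slc6a19 relative to Slc6a18.

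A related list of 13 genes was examined, mostly proteins that hold apical carriers at the surface and peptidases that feed them. It also held the peptide carriers Slc15a1 and Slc15a2 and the amino acid carrier Slc16a10. Of the 13 genes, 7 were higher with BA at an unadjusted p below 0.05, against 5.67% of all genes, and 0 lower, against 4.61%. The list's median log2 fold change was 0.28, and DESeq2 called 3, against 1.35% of all genes with an adjusted p. Cltrn (collectrin), which Slc6a19 needs to reach the brush border, was at 6144, 6443 and 8631 in UIRI against 9803, 9895 and 11520.0 in UIRI + BA, with 0.57 as the log2 fold change (adjusted p 0.258 by limma, 0.0118 by DESeq2). Pdzk1, a scaffold of brush border carriers, was at 1047, 1247 and 1706 in UIRI against 2424, 1708 and 2619 in UIRI + BA and gave 0.76 (adjusted p 0.291 by limma, 0.0128 by DESeq2). In both genes the groups did not overlap, UIRI replicate 3 was the highest UIRI library and UIRI + BA replicate 3 the highest of all. The scaffold Slc9a3r1, aminopeptidase A (Enpep) and the glutathione-cleaving Ggt1 were also higher, by 0.26, 0.28 and 0.38, with adjusted p from 0.291 to 0.442.

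The amino acid response, a program of ATF4 targets that includes several stress-induced carriers, showed little as a list. Of 22 genes, 2 were higher and 1 lower at an unadjusted p below 0.05, against 5.67% and 4.61% of all genes. The list's median log2 fold change was 0.02. Atf4 itself was at 3216, 3087 and 2724 in UIRI against 2802, 2685 and 2627 in UIRI + BA, so the log2 fold change was -0.15 with overlapping groups (adjusted p 0.551). Stc2, a secreted glycoprotein of the stress response, was at 548, 655 and 642 in UIRI against 862, 865 and 836 in UIRI + BA, without overlap (log2 fold change 0.48, adjusted p 0.225 by limma and 0.00994 by DESeq2). Cth, the cysteine-making enzyme cystathionine gamma-lyase, gave 0.46 and the pseudokinase Trib3 gave -0.49, both with overlapping groups.

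Each carrier was also expressed relative to the mean log2 value of the 12 proximal tubule markers in the same library. On that scale 4 of the 9 apical carriers lay above 0 and 5 below, with a median difference of -0.05, and the groups overlapped in 7. Slc6a20b and Slc3a1 were the 2 with every UIRI + BA library above every UIRI library, by 0.34 and 0.16. The other 2 above 0, Slc7a13 and Slc6a19, had overlapping groups, and Slc36a2 was lowest at -0.85. Slc1a4 gave -0.20 and Slc7a7 -0.23, both now with overlapping groups. This scale lowers every gene by 0.68, the difference in the marker mean, and 17 of the 51 genes then had all UIRI + BA libraries below all UIRI libraries. Of the stress-induced carriers 5 were among the 17: Slc7a11 at -1.39, Slc7a5 at -0.93, Slc7a1 at -0.76, and Slc38a2 and Slc3a2, both at -0.68. The share of all genes was not taken on this scale, so none of its counts can be set against a background. The shift alone can bring a gene without a difference, such as Slc38a2 or Slc3a2, below.

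The mean log2 value of the 9 apical carriers minus that of the 9 stress-induced carriers was 0.14, 0.23 and 0.47 in the UIRI libraries and 0.84, 0.89 and 1.22 in the UIRI + BA ones. The treated libraries were all above the untreated ones, and the lists' medians differed by 0.70 on the log2 scale. Most of this came from the apical side, whose list mean stood at 9.10, 9.21 and 9.53 without BA and 9.74, 9.81 and 10.14 in UIRI + BA. The stress-induced list stood at 8.96, 8.98 and 9.06 without BA and 8.90, 8.92 and 8.91 with it. Its treated means were thus all below its untreated ones, by a small difference of -0.09 between the groups.

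**Figure D4:**
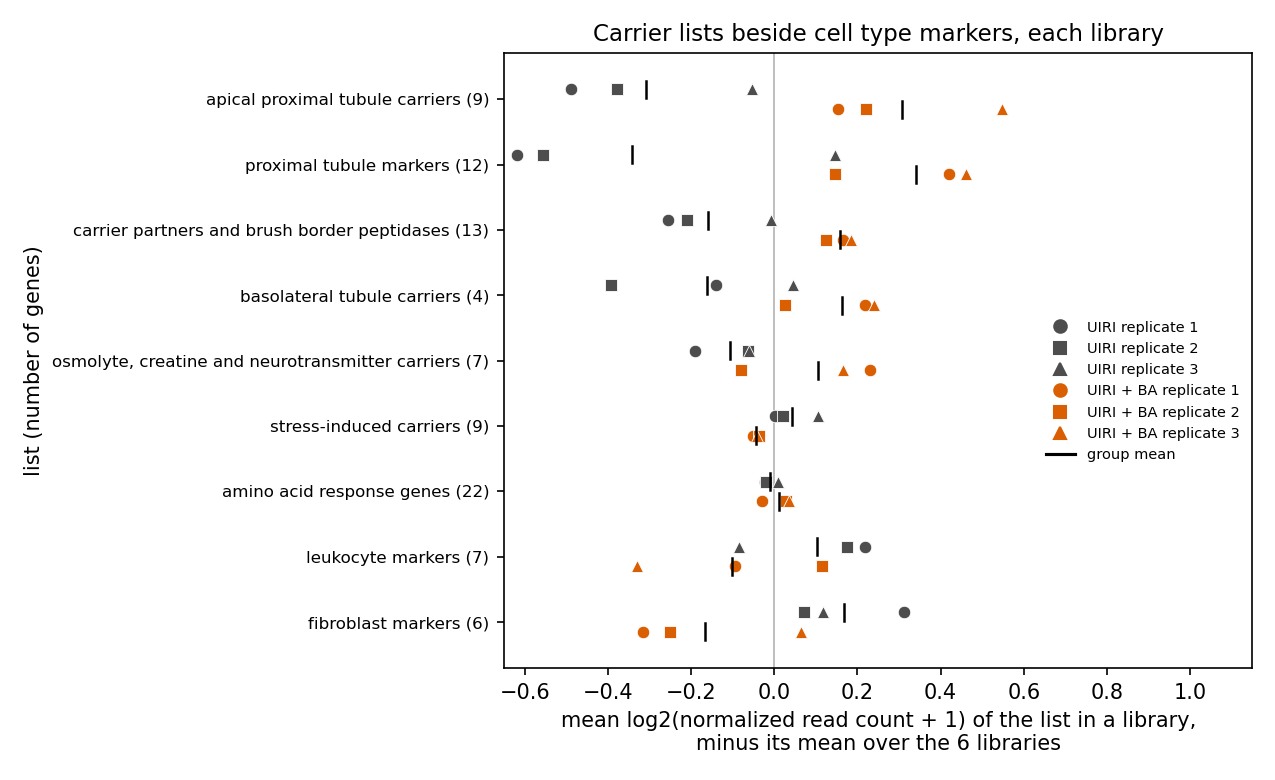
Mean log2(normalized read count + 1) of each list in each library, minus its mean over the 6 libraries, with a bar at each group mean. The apical carriers and the 12 proximal tubule markers spread widely, with UIRI replicate 3 nearest to the orange UIRI + BA points, whereas the stress-induced carriers and the 22 amino acid response genes lie within about 0.1 of 0.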

How the data were processed

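RNA sequencing of renal cortex from 3 UIRI and 3 UIRI + BA mice was analysed, with groups read from the library labels; p-values measure the spread between these animals. Per the methods, reads were aligned with HISAT2 and counted with FeatureCounts; the build is not given in the sources used here. The authors deposited a signal per gene and library, a read count divided by 1 size factor for each library: 100% of the values were whole multiples of a step (within 0.1 read), so reads could be recovered; the FPKM that the methods name are not the values in this table. Fold changes, p-values and enrichment tables of the authors' own comparison were not used. Precision is limited by 3 animals a group and, for low genes, by read number.

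The main test was limma 3.58.1 (R 4.3.3, empirical Bayes with trend, no covariate) on log2(value + 1) over all 19176 rows, with Benjamini-Hochberg adjustment and a threshold of 0.05. DESeq2 1.42.0 and edgeR 4.0.16 (quasi-likelihood) were run on the recovered reads. Fold changes are on the log2(value + 1) scale, which understates those of low genes. Partner pairs were tested with an exact two-sided permutation test (scipy 1.17.1). Exon lengths came from GENCODE M21 and promoters from RefSeq GRCm38.p6. The 3 model fits were tested on simulated data. Named genes are all members of the apical, basolateral and stress-induced lists, every other member with an unadjusted p below 0.05 or separate ranges, the most abundant per length of each other list, up to 6 genes of each related list with an unadjusted p below 0.05, and Atf4 and Cltrn (1 further gene of this rule is not reported here); Slc7a6os, Slc36a3os, Slc6a7, Slc6a12 and marker genes fall outside this rule and were picked with their values known. The genes, lists and tests were chosen with earlier results of these data known. Alternatives were other scalings, a filter, a pseudocount of 0.1, a replicate block and each library left out; leaving out libraries in DESeq2, the scale relative to proximal tubule markers and the pairs were added after seeing the data.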

Additional observations from a re-analysis of the deposited data

How the results depend on the processing

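With 3 animals a group, single libraries decide several counts, and leaving out UIRI replicate 3 gave the highest of the first 3 ranges below. The number of genes with an adjusted p below 0.05, 0 with limma, was 4 with DESeq2 and ran from 0 to 9 with 1 library left out; DESeq2's own number ran from 0 to 11. The number lower at an unadjusted p below 0.05, 2 with all libraries, ran from 1 to 5, and that with all UIRI + BA libraries below all UIRI libraries, 3, ran from 3 to 12. The median log2 fold change of the stress-induced carriers, -0.07, ran from -0.086 to 0.064 with 1 library left out and was -0.091 with upper quartile scaling. The cause was not tested. The number higher at an unadjusted p, the number with all UIRI + BA libraries above, the medians of the apical and basolateral lists and the difference of 0.70 between the apical and stress-induced medians, which ran from 0.51 to 0.79, kept their direction and, for the counts, stayed within 1.5 times their value under every alternative they were run in. Of 43 named genes, 8 turned sign with some library left out, all 8 with a difference under 0.2: Slc38a2 from -0.061 to 0.064, Slc3a2 from -0.062 to 0.082, Slc43a2 from -0.0054 to 0.16, Slc6a9 from -0.0080 to 0.19, Slc7a1 from -0.21 to 0.16, Slc7a8 from -0.091 to 0.060, Slc43a3 from -0.20 to 0.016 and Slc38a10 from -0.12 to 0.065. None of the 20 members with an unadjusted p below 0.05 turned sign in any of 13 alternatives. Ranges of the groups could not be taken from the block, DESeq2 or edgeR fits.

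Deviations of same-numbered libraries from their group means correlated at -0.24, 0.30 and 0.15 over 17249 genes, without a common sign. Deviations within a group cancel out, which ties these correlations together. The check therefore cannot tell whether the numbers pair the samples. With the replicate block, 0 members had an adjusted p below 0.05, 20 were higher and 2 lower at an unadjusted p below 0.05, and the block changed no other call. UIRI replicate 2 correlated best with its own number, at 0.30, but UIRI replicate 1 with number 2, at 0.23, and replicate 3 with number 1, at 0.24. Upper quartile scaling moved the median of all genes by -0.02.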
